A study of Homo sapiens with 11 samples.

Results

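The 10 genes described here encode MAP3K5 (apoptosis signal-regulating kinase 1, ASK1) and kinases of the stress-activated JNK and p38 cascades. They were chosen by symbol (MAP3K5, MAP3K8, MAP3K14, MAP2K3, MAP2K4, MAP2K6, MAPK8, MAPK9, MAPK13 and MAPK14) out of 28152 gene symbols in the deposited tables. All 10 were in the tables and passed the filter on low counts, as did 16653 symbols in all. The list was drawn up with results of the comparison of evexomostat with vehicle already known, so the differences of these 10 genes in that comparison are given as a description.

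RNA was sequenced from tumours labelled BT-474, a human breast cancer cell line and the 1 line of the study, grown in the mammary fat pad of female athymic nude mice, animals that lack T cells and keep other immune cells. All mice carried a slow-release pellet of 0.72 mg estradiol made to last 90 days, and tumours entered the study above 95 cubic millimetres. The 6 vehicle tumours came from mice given 5% mannitol in water, and the 5 evexomostat tumours from mice given evexomostat (SDX-7320, an inhibitor of the aminopeptidase MetAP2) at 12 mpk in the same liquid, both under the skin every 4 days, with day 33 as the labelled time. The labels give no ages, describe the line as positive for hormone receptors and HER2, and do not say whether each library came from a separate animal, so p-values measure the spread between these libraries.

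Library totals ranged from 22808033 to 39249329 counts. Vehicle replicate 001 stood apart, with a TMM scaling factor of 0.860 against 0.956 to 1.08 in the other 10 libraries, and the values of the kinases that moved with it are given without it too. Of the 10 luminal markers, KRT8 averaged 333 CPM (CPM is the count scaled to library size after TMM normalisation), KRT18 149 and ERBB2 53.3. GATA3 averaged 6.50, EPCAM 3.05, FOXA1 1.05, KRT19 0.804, CDH1 0.453, ESR1 0.286 and PGR 0.0654. The hormone receptor genes ESR1 and PGR, with 0 to 17 counts per library, were near absent from libraries labelled as receptor-positive. With KRT19 and CDH1, 4 of the 10 luminal markers averaged under 1 CPM. Whether the level of ERBB2 bears out the HER2 label was not tested. Summed over 9 leukocyte markers, levels were 81.9 to 121 CPM under vehicle and 89.5 to 103 under evexomostat, with CD3E at 0 counts in every library. Sums over 7 stromal markers were 397 to 2057 and 494 to 1068 CPM. Over 12 skeletal muscle markers they were 5.10 to 23.6 and 6.39 to 521 CPM, with the highest value in evexomostat replicate 005. Sums were 12.4 to 23.2 and 11.5 to 15.7 CPM for 6 endothelial markers and 0.344 to 1.99 and 0.311 to 2.71 for 5 adipocyte markers, with ADIPOQ at 0 counts throughout. No tested marker of the 6 lists, the luminal list included, had an adjusted p under 0.05 in edgeR. The tumours are bulk samples, so fewer cells of a type and less RNA per cell cannot be told apart. Host cells of these tumours are mouse cells, and what became of mouse reads is not given. Sums over human symbols of host cell markers are thus not a measure of how many host cells were present.

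MAP kinase cascades relay a signal through tiers of kinases, in which a MAP3K phosphorylates a MAP2K and the MAP2K phosphorylates a MAP kinase. MAP3K5 is held inactive by reduced thioredoxin and is released by oxidants and by tumour necrosis factor signalling. It then acts through MAP2K4 and MAP2K7 on the JNK kinases and through MAP2K3 and MAP2K6 on the p38 kinases, which control transcription factors such as JUN and ATF2 and, through MAPKAPK2, the stability of cytokine mRNAs. MAP3K8 (TPL2) and MAP3K14 (NIK) are MAP3Ks of inflammatory signalling, which act mainly on the MEK-ERK arm and on the non-canonical NF-kB pathway. Activity of these kinases is set by phosphorylation, which RNA levels do not measure.

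The 2 genes that fell under evexomostat were both at the top tier. The mean of MAP3K5 and that of MAP3K8 each dropped by more than 1 SD of either group, MAP3K14 had higher mean levels without passing the threshold, and none of the 7 genes of the lower tiers passed it. That is 2 of 10 genes called in edgeR's quasi-likelihood test at an adjusted p under 0.05, where 0.606% of all 16653 tested genes were called in either direction and 0.432% were called lower. Because this comparison was used to pick the genes, the share is printed as a description. The median log2 fold change of the 10 genes was -0.10, beside -0.04 for all tested genes.

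MAP3K5 was at 15.2, 27.95, 21.5, 21.9, 19.7 and 25.9 CPM in vehicle replicates 001, 003, 004, 005, 006 and 007. In evexomostat replicates 002, 003, 004, 005 and 007 it was at 8.81, 10.98, 9.86, 9.30 and 6.72 CPM. The groups did not overlap, and the highest evexomostat library lay below vehicle replicate 001, the lowest of its group. Over all tested genes, 1.64% had every evexomostat library below every vehicle library and 1.33% had every one above. None of the 10 kinases lay wholly above. Means were 22.0 ± 4.51 CPM (SD, n = 6) and 9.13 ± 1.57 (SD, n = 5), a log2 fold change of -1.27 (standard error 0.18, adjusted p 0.0138 in edgeR), which ranked 8 of 16653 by p-value. It was -1.35 (adjusted p 0.00284 in edgeR) once vehicle replicate 001 was left out. The adjusted p was 0.0525 without evexomostat replicate 002, 0.0571 without 005 and 0.0609 without 007, at log2 fold changes of -1.26, -1.28 and -1.18. In the authors' deposited table the log2 fold change of MAP3K5 is -1.18, with an adjusted p of 0.00075. The test behind that table is not stated, and 268 of its 28152 genes (0.952%) have an adjusted p under 0.05.

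MAP3K8, which phosphorylates MEK and is bound by the NFKB1 precursor p105, had a lowest, median and highest vehicle level of 34.7, 43.2 and 87.7 CPM. The 5 evexomostat libraries were at 17.9, 27.1, 19.9, 19.4 and 16.7 CPM. The groups did not overlap, and vehicle replicate 007 alone held the value of 87.7, with the other vehicle libraries at 48.4 or less. Mean levels were 49.4 ± 19.4 CPM (SD, n = 6) and 20.2 ± 4.05 (SD, n = 5), and the log2 change was -1.29 (standard error 0.23, adjusted p 0.0313 in edgeR). Without vehicle replicate 007 it was -1.05 (adjusted p 0.0266 in edgeR), and without vehicle replicate 001 it was -1.34 (0.0119). The adjusted p of MAP3K8 passed 0.05 when vehicle replicate 003 (0.0555) or evexomostat replicate 002 (0.101), 004 (0.0969), 005 (0.11) or 007 (0.12) was left out. The authors' deposited table gives a log2 fold change of -1.19 and an adjusted p of 0.00108 for MAP3K8. MAP3K8 is a gene of myeloid cells as well as epithelium, and the leukocyte list held CD68 at a mean of 38.7 CPM, LYZ at 27.7, ITGAM at 23.6, CD14 at 5.85, PTPRC at 2.23 and CSF1R at 1.56. CD79A averaged 0.125 and AIF1 0.0147 CPM, and the summed levels of the 9 markers overlapped between the groups. Host cells here are mouse cells, so these human markers do not measure myeloid content. The part of host cells in the result was not tested.

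Because MAP3K5 and MAP3K8 moved together, the sequences before their start sites were searched for motifs of factors of the cascade, on both strands. RefSeq promoter windows of 300 bases (250 before to 50 after an annotated start, build GRCh38.p14) were found for all 10 genes, 17 windows in all. The motifs were the NF-kB consensus, which 11.3% of 35116 windows of this length hold, the AP-1 site TGANTCA (7.71%) and the cyclic AMP response element TGACGTCA (1.85%). Motifs of different kinds did not overlap in the windows printed. A window of MAP3K8 and both windows of MAP3K5 are shown because these are the genes that fell, and the MAP3K14 window because that gene did not. Capitals mark motif matches, and the build has MAP3K5 at chr6:136793042-136793341 and chr6:136792428-136792727 (minus strand), MAP3K8 at chr10:30433934-30434233 (plus strand) and MAP3K14 at chr17:45316971-45317270 (minus strand).
MAP3K8, start 2: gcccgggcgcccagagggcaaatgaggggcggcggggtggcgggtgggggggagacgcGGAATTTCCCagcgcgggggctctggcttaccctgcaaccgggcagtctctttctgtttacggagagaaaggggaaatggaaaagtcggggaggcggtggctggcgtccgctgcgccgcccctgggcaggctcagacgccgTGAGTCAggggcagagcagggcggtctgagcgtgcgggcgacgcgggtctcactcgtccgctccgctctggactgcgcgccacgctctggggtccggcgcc
MAP3K5, start 1: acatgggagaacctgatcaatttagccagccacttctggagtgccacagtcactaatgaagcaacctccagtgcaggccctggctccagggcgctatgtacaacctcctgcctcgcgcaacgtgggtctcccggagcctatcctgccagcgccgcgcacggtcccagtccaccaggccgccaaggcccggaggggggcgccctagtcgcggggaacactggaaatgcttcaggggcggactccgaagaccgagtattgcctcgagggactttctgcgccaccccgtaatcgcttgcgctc
MAP3K5, start 2: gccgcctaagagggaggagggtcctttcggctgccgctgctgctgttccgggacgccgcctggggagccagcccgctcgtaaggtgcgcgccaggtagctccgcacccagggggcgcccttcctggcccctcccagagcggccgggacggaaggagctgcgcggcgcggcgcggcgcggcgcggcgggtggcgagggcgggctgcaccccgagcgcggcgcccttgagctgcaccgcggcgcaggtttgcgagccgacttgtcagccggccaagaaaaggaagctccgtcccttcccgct
MAP3K14: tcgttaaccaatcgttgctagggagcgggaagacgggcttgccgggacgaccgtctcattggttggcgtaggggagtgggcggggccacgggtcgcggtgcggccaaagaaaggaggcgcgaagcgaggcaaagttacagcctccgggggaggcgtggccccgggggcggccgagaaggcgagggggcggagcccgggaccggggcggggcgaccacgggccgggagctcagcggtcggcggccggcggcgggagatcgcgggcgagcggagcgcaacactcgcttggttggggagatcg
In the MAP3K8 window the first run of capitals is an NF-kB match that begins at -192 from the start, and the other is an AP-1 match that begins at -51. All 3 MAP3K8 windows held an NF-kB match, and start 1 and start 2 share theirs. Only start 2, the MAP3K8 window printed, held an AP-1 match as well. Neither MAP3K5 window and not the MAP3K14 window held any of the 3 motifs in these letters. Of the remaining genes, MAP2K3 and MAPK14 had windows with NF-kB matches, and MAP2K3 also had an AP-1 match.

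MAP3K14, the kinase that starts non-canonical NF-kB signalling, had the opposite sign. Its vehicle libraries had a lowest, median and highest level of 15.4, 24.7 and 32.8 CPM, and the evexomostat libraries were at 37.4, 28.8, 36.2, 40.1 and 36.8 CPM. Only evexomostat replicate 003 lay within the vehicle range, below vehicle replicate 006. The log2 fold change was 0.53 (standard error 0.17, adjusted p 0.188 in edgeR), on means of 24.8 ± 5.68 CPM (SD, n = 6) and 35.9 ± 4.24 (SD, n = 5). Without vehicle replicate 001, the lowest library, it was 0.43 (adjusted p 0.0565 in edgeR). It had an adjusted p of 0.0209 in limma-voom with sample quality weights. Across the vehicle libraries the coefficient of variation was 20.5% for MAP3K5, 39.2% for MAP3K8 and 22.9% for MAP3K14, and it was 17.2%, 20.1% and 11.8% across the evexomostat libraries.

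**Figure D1:**
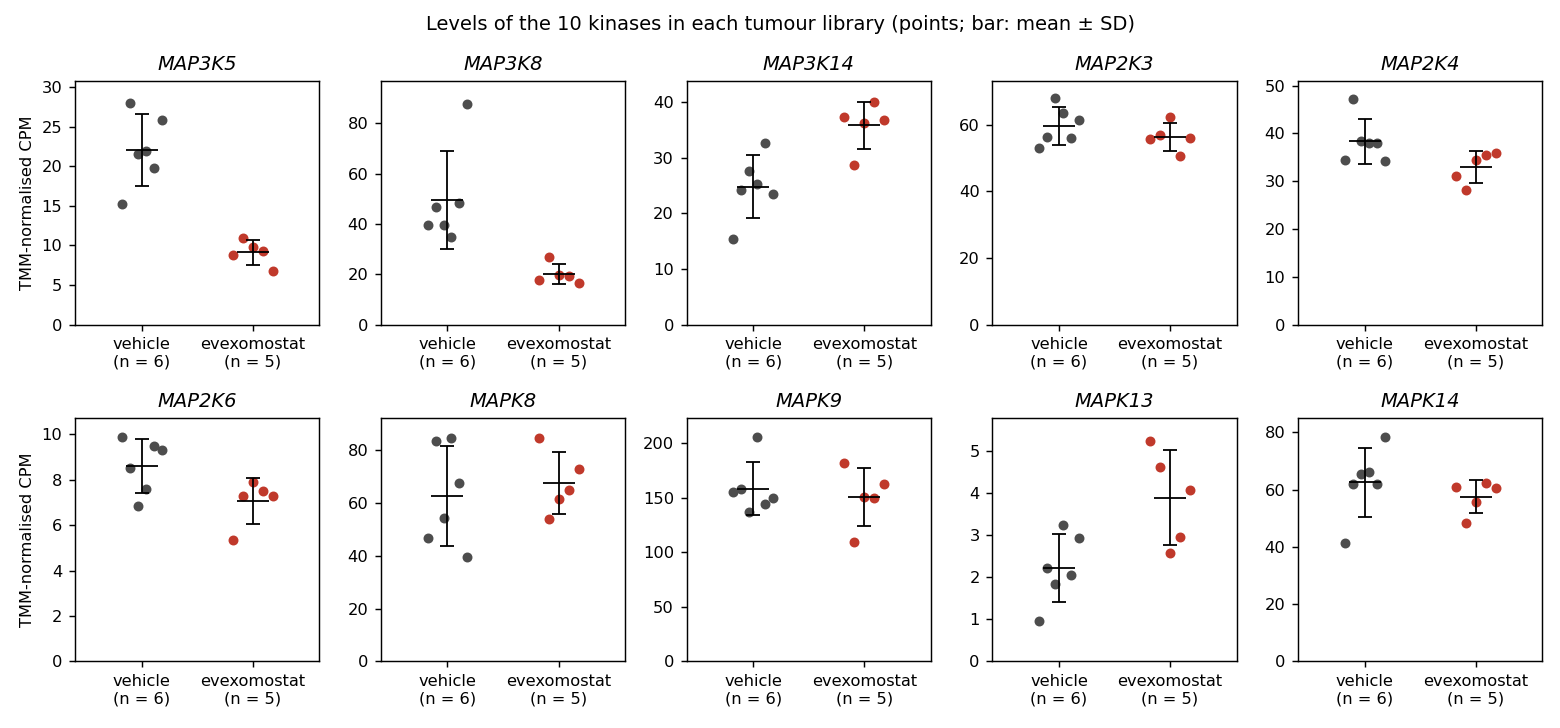
TMM-normalised CPM (vertical axes, from 0, one scale per gene) of the 10 kinases in 6 vehicle and 5 evexomostat libraries. Points are libraries and bars the mean ± SD. MAP3K5 and MAP3K8 are the genes whose groups do not overlap.

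At the MAP2K tier no gene passed the threshold. MAP2K3, which phosphorylates p38, was the steadiest of the 10 genes, at 52.9 to 68.1 CPM under vehicle and 50.7 to 62.3 under evexomostat (log2 change -0.08, standard error 0.11, adjusted p 0.805 in edgeR). MAP2K4, which phosphorylates JNK and p38, ranged over 34.1 to 47.1 and 28.2 to 36.0 CPM. Its log2 fold change was -0.22 (standard error 0.12, adjusted p 0.474 in edgeR). MAP2K6, the other p38 kinase kinase, was less abundant at 6.84 to 9.89 and 5.34 to 7.90 CPM, and its log2 fold change was -0.28 (standard error 0.16, adjusted p 0.494 in edgeR), or -0.11 in the 8 libraries whose replicate numbers occur in both groups. The ranges of all 3 genes overlapped between the groups.

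The JNK kinases showed more spread between tumours than between groups. MAPK8 (JNK1) ran from 39.4 to 84.3 CPM under vehicle and from 53.9 to 84.7 under evexomostat, and the log2 change was 0.11 (standard error 0.20, adjusted p 0.881 in edgeR). MAPK9 (JNK2) ran from 136.5 to 206 and from 109 to 181 CPM, and the log2 change was -0.07 (standard error 0.15, adjusted p 0.895 in edgeR). The signs of both are unstable. MAPK8 was at 0.04 without vehicle replicate 001, at 0.01 without vehicle replicate 007 or evexomostat replicate 002, and at -0.06 in the 8 libraries whose replicate numbers occur in both groups, and MAPK9 at 0.02 without vehicle replicate 005 or evexomostat replicate 003. In deviations from the group means, MAPK8 and MAPK9 varied together over the 11 libraries (Pearson r 0.63), as did MAPK8 and MAP2K4 (r 0.62), while MAPK8 and MAP3K8 varied inversely (r -0.64). Without vehicle replicate 001 these values were 0.67, 0.57 and -0.79, and all genes share the depth and composition of each library. The JNK pairs given were picked from all pairs of the kinases after their values were seen. Pairs outside JNK were stronger over all libraries, namely MAP3K14 with MAPK14 (r 0.74) and MAPK13 with MAPK14 (r 0.67). Without vehicle replicate 001 those pairs were at 0.21 and 0.16, so co-variation among the kinases depended in part on that library.

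Of the p38 kinases, MAPK14 (p38 alpha, the broadly expressed form) was at 41.2 to 78.5 CPM under vehicle and 48.4 to 62.3 under evexomostat, and the log2 change was -0.12 (standard error 0.15, adjusted p 0.8 in edgeR). It was -0.21 (adjusted p 0.221 in edgeR) without vehicle replicate 001, -0.04 without vehicle replicate 007, and -0.27 in the 8 libraries whose numbers occur in both groups. MAPK13 (p38 delta, a form found in epithelia) was the least abundant gene of the 10 in CPM, with 20 to 169 counts per library. Its vehicle libraries had a lowest, median and highest level of 0.970, 2.14 and 3.23 CPM, and its evexomostat libraries were at 5.25, 4.62, 2.57, 2.95 and 4.07 CPM. The groups overlapped, with evexomostat replicates 004 and 005 within the vehicle range. The log2 fold change was 0.81 (standard error 0.30, adjusted p 0.244 in edgeR), and 0.46 or 0.47 in those 8 libraries, with or without a replicate block. It was 0.67 (adjusted p 0.123 in edgeR) without vehicle replicate 001, which was the lowest vehicle library for MAPK13, MAPK14, MAP2K3, MAP3K5 and MAP3K14.

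Levels can be ranked between genes only per length, and the ranking depended on the gene model. In CPM per kilobase of the union of GENCODE release 29 exons, the vehicle order was MAPK9 at 23.9 ± 3.69 (SD, n = 6), MAP2K3 at 22.5 ± 2.13, MAP3K8 at 14.6 ± 5.71, MAPK14 at 14.0 ± 2.71, MAP2K4 at 9.92 ± 1.21 and MAPK8 at 9.79 ± 2.97. Below these came MAP3K14 at 5.19 ± 1.19, MAP3K5 at 4.24 ± 0.868, MAP2K6 at 0.630 ± 0.0870 and MAPK13 at 0.327 ± 0.120. Each neighbouring pair overlapped in range from MAPK9 down to MAP3K5, and the steps to MAP2K6 and to MAPK13 did not overlap. With the median length of the coding transcripts in place of the union, MAPK9 was still highest, at 48.0 ± 7.43 CPM per kilobase, and MAPK13 lowest, at 1.08 ± 0.395. MAP2K6, whose exon union is 13657 bases long and whose median coding transcript is 1512, moved to 5.69 ± 0.786. Under evexomostat, the exon-union order put MAP3K8, at 5.94 ± 1.19 (SD, n = 5), below MAP3K14, at 7.504 ± 0.887, with ranges that overlapped. MAP3K5 was at 1.76 ± 0.303 CPM per kilobase with either length.

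The genes whose log2 CPM over the 11 libraries was most like that of MAP3K5 were FNDC3B (Pearson r 0.96), NFKBIZ (0.96), CNKSR3 (0.96), PTGS2 (0.95) and SLC43A2 (0.95). All 5 have lower means under evexomostat, so the group difference enters each of these values. MAP3K8 ranked 36 among all tested genes by this measure (r 0.91), and the remaining 8 kinases ranged from MAP2K4 (r 0.58) to MAP3K14 (r -0.61). In deviations from the group means the 5 most similar genes were NDRG4 (r 0.93), CNKSR3 (0.90), PROC (0.90), FGFR2 (0.89) and NFKBIZ (0.89), and MAP3K8 was at 0.56. Both rankings include vehicle replicate 001, the lowest vehicle library for MAP3K5, and how far they rest on it was not tested. Without it, the deviation correlation of MAP3K5 went from 0.21 to -0.66 with MAP3K14 and from 0.43 to -0.25 with MAPK14. With MAP3K8 it was 0.55. CNKSR3 and NFKBIZ, an inducible NF-kB regulator, were on both lists. NFKBIZ fell from 74.5 ± 21.2 to 38.4 ± 5.72 CPM (log2 change -0.95, standard error 0.19, adjusted p 0.0466 in edgeR), and CNKSR3 had a log2 fold change of -0.77 (standard error 0.17, adjusted p 0.0679 in edgeR). Leaving out evexomostat replicate 005 left 1 called gene among all tested, which was higher, so the call of NFKBIZ was lost there. PROC averaged 0.392 CPM, so its place rests on few counts.

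The remaining genes of the cascade, none of them among the 10, were read from the same edgeR fit in 11 lists of 121 genes, 115 of them tested. Of these, 3 passed the threshold (2.61%, beside 0.606% of all tested genes), all lower under evexomostat: RELB, BIRC3 and PTGS2. An unadjusted p under 0.05 was found for 29 of the 115 genes (25.2%, beside 13.4% of all). The groups did not overlap in 10 genes, 9 lower and 1 higher, where 2.97% of all genes did not overlap. The lists were written with earlier results of these data known, so these shares are given as a description. The median log2 fold change of the 115 genes was -0.17, with 85 negative and 30 positive. That of all tested genes was -0.04, and 0.0062 with upper quartile scaling. The share of negative signs over all genes was not counted, so the sign counts here and below have no baseline.

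**Figure D2:**
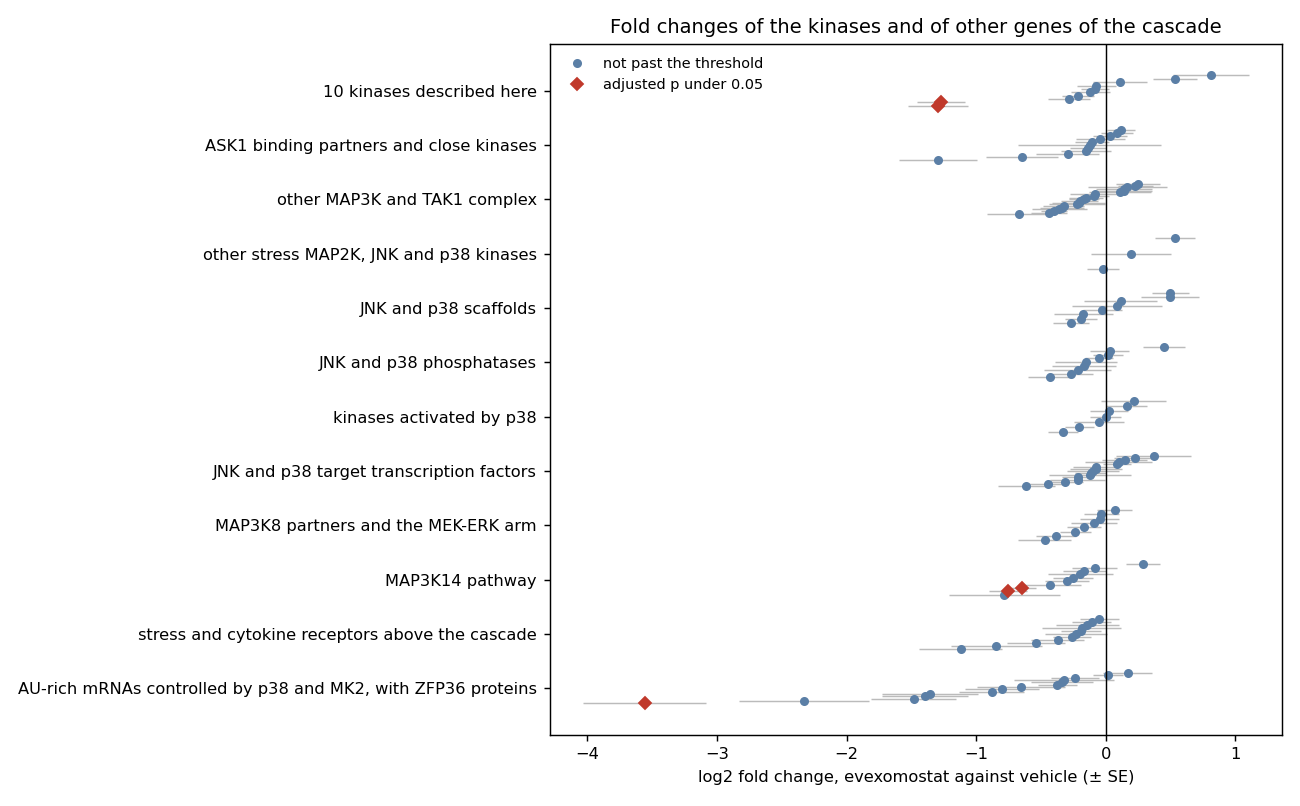
Log2 fold change (horizontal axis, evexomostat against vehicle, with the standard error) of each tested gene, by list (vertical axis). Red diamonds are the genes with an edgeR adjusted p under 0.05: MAP3K5 and MAP3K8 of the 10 kinases, RELB and BIRC3 of the MAP3K14 pathway, and PTGS2 of the AU-rich mRNAs.

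Of the called genes of the MAP3K14 pathway, RELB lies downstream of MAP3K14 and BIRC3 protein acts on it, and both genes also answer to canonical NF-kB. RELB, the subunit that pairs with processed NFKB2, was at 100.3 to 120.0 CPM under vehicle and at 65.4, 69.0, 82.5, 64.1 and 66.5 CPM under evexomostat. BIRC3 (cIAP2), which targets MAP3K14 protein for degradation, was at 102 to 132 CPM under vehicle and at 75.3, 89.7, 75.7, 65.4 and 49.9 CPM under evexomostat. Neither gene's groups overlapped, and MAP3K14 itself had the opposite sign. RELB had a log2 fold change of -0.65 (standard error 0.11, adjusted p 0.0246 in edgeR), and the adjusted p passed 0.05 without evexomostat replicate 002 (0.0835), 003 (0.0523), 005 (0.103) or 007 (0.11), and with a replicate block on 8 libraries (0.0876). In the authors' deposited table neither gene passes, with adjusted p-values of 0.0764 for RELB and 0.0547 for BIRC3. BIRC3 had a log2 fold change of -0.76 (standard error 0.15, adjusted p 0.0462 in edgeR). Its call was lost with upper quartile scaling (0.0667), with that block (0.0906) and when any of vehicle replicates 003, 004, 006 and 007 or evexomostat replicates 002, 004, 005 and 007 was left out (0.0584 to 0.132). The other 8 genes of the list, among them TRAF3, BIRC2, CHUK and NFKB2, did not pass, and 9 of all 10 had a negative sign.

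Among the MAP3K8 partners and the MEK-ERK arm, 0 of 8 genes passed in edgeR, with 2 at an unadjusted p under 0.05 and 7 negative. NFKB1, whose precursor protein binds MAP3K8, had the smallest p-value. It was at 82.9 ± 17.1 and 63.5 ± 6.21 CPM, a log2 fold change of -0.38 (standard error 0.16, adjusted p 0.301 in edgeR). With vehicle replicate 001 left out it was -0.48 (adjusted p 0.0278 in edgeR), and with another library left out the adjusted p was up to 0.517.

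Among the ASK1 partners and close kinases, 0 of 11 tested genes passed in edgeR, with 2 at an unadjusted p under 0.05 and 8 negative. GLRX, a glutaredoxin that like thioredoxin reduces protein disulfides, was at 54.6 ± 27.2 CPM (SD, n = 6) and 22.2 ± 7.55 (SD, n = 5). Its groups did not overlap, its log2 fold change was -1.30 (standard error 0.30, adjusted p 0.0714 in edgeR), and its highest vehicle library was again replicate 007, at 109.7 CPM. It was -0.97 (adjusted p 0.0764 in edgeR) without that library and -1.33 (0.0337) without vehicle replicate 001, the 1 omission of 11 that took it past the threshold, while the others reached 0.214. The authors' deposited table lists GLRX at an adjusted p of 0.0114. Thioredoxin itself (TXN), named after its values were seen, was at 1656 CPM in vehicle replicate 001, at 563 to 761 in the other vehicle libraries and at 445 to 612.5 under evexomostat, and did not pass the threshold. Of the other MAP3Ks and the TAK1 complex, 0 of 19 passed, with 3 at an unadjusted p under 0.05. MAP3K2, which acts on JNK and ERK5 pathways, had the smallest p-value, at 102 ± 7.09 and 77.5 ± 5.02 CPM with groups that did not overlap (log2 change -0.40, standard error 0.10, adjusted p 0.0992 in edgeR). Its edgeR adjusted p was 0.0261 without vehicle replicate 001 and up to 0.289 when another library was left out.

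The kinase forms outside the 10 also did not pass the threshold in the main edgeR fit. MAPK12 (p38 gamma, a form rich in skeletal muscle) was at 24.7 ± 4.64 and 35.7 ± 5.79 CPM, a log2 fold change of 0.53 (standard error 0.15, adjusted p 0.142 in edgeR). Without vehicle replicate 001, the highest vehicle library at 33.0 CPM, it was 0.64 (adjusted p 0.0198 in edgeR), and with another library left out the adjusted p was up to 0.32. The summed muscle markers had a median of 12.4 CPM under vehicle and 28.8 under evexomostat. In evexomostat replicates 002, 003, 004, 005 and 007 these sums were 6.39, 28.8, 59.6, 521 and 11.6 CPM. MAPK12 was at 43.9, 38.7, 32.4, 28.9 and 34.4 CPM in the same order. The part of muscle tissue in the MAPK12 difference was not tested. MAPK10 (JNK3, a neuronal form) had too few counts to test. Of 8 scaffold genes 0 passed in edgeR, and 2 had an unadjusted p under 0.05. MAPK8IP1 (JIP1, a JNK scaffold) was the gene whose evexomostat libraries all lay above vehicle, at 21.0 ± 1.89 against 14.9 ± 2.40 CPM (log2 change 0.50, standard error 0.14, adjusted p 0.14 in edgeR). Its adjusted p was 0.0207 in DESeq2 and 0.0214 in limma-voom with sample quality weights.

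Downstream, counts of called genes were 0 in edgeR for the JNK and p38 phosphatases (9 tested, 2 at an unadjusted p under 0.05), the kinases activated by p38 (7 tested, 1) and the target transcription factors (15 tested, 3). DUSP8, a phosphatase of JNK and p38, had a log2 fold change of 0.45 (standard error 0.16, adjusted p 0.24 in edgeR). MAPKAPK2, the main effector kinase of p38, was at 162 ± 18.7 and 129 ± 8.43 CPM, and the log2 change was -0.33 (standard error 0.12, adjusted p 0.227 in edgeR). JUNB, an AP-1 subunit, was at 289 ± 56.8 and 212 ± 20.6 CPM, and the log2 change was -0.45 (standard error 0.15, adjusted p 0.211 in edgeR). Upstream, all 11 receptor and adaptor genes had a negative sign, with a median log2 fold change of -0.23 beside -0.04 for all tested genes. Of the 11, 0 passed in edgeR, with 3 at an unadjusted p under 0.05. IL1R1, the signalling receptor of interleukin 1, was at 66.2 ± 37.8 and 30.5 ± 7.08 CPM (log2 change -1.12, standard error 0.32, adjusted p 0.137 in edgeR). It was -0.76 (adjusted p 0.166 in edgeR) without vehicle replicate 007, its highest library, and -1.26 (0.0284) without vehicle replicate 001, while other omissions reached 0.335.

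The AU-rich mRNAs that p38 and MAPKAPK2 stabilise, listed with the ZFP36 proteins that bind them, had the lowest median of the 11 lists, -0.73, with 12 of 14 tested genes negative and 8 at an unadjusted p under 0.05. PTGS2 (cyclooxygenase 2) was the 1 gene past the threshold, at 13.6, 66.9, 44.4, 62.6, 37.0 and 129 CPM in the vehicle libraries and 2.95, 4.82, 7.10, 5.23 and 4.91 CPM in the evexomostat libraries. It fell by 3.56 on the log2 scale (standard error 0.47, adjusted p 0.0138 in edgeR), and its adjusted p was 0.0525, 0.0558 and 0.0587 without evexomostat replicate 002, 005 or 007. In the authors' deposited table PTGS2 has an adjusted p of 1.56e-11. The other genes whose groups did not overlap, named after their values were seen, were IL6 (log2 fold change -1.40, edgeR adjusted p 0.0811), CXCL1 (-2.33, 0.0613) and CXCL3 (-1.48, 0.0665). TNF, CSF2 and IER3 did not pass the count filter. PTGS2 was already known to differ in these libraries when the list was written.

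**Figure D3:**
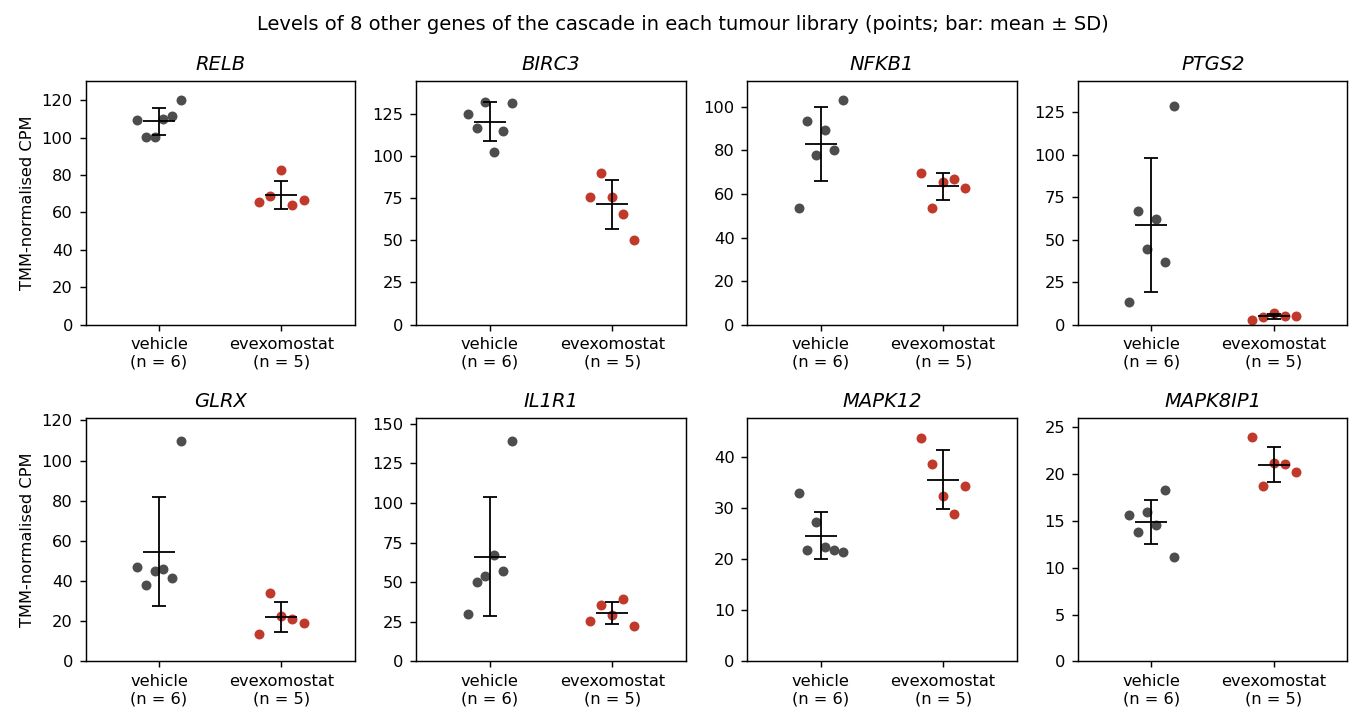
TMM-normalised CPM (vertical axes, from 0) of 8 other genes of the cascade in each library. Points are libraries and bars the mean ± SD of 6 vehicle and 5 evexomostat libraries. RELB, BIRC3, PTGS2, GLRX and MAPK8IP1 do not overlap between the groups, and vehicle replicate 007 is the highest point for PTGS2, GLRX and IL1R1.

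The size of the MAP3K5 and MAP3K8 differences varied little with the processing, while their calls depended on single libraries. Over 20 alternatives the log2 fold change of MAP3K5 lay between -1.42 and -1.18 and had an adjusted p under 0.05 in 17. That of MAP3K8 lay between -1.42 and -1.05 and had an adjusted p under 0.05 in 14. The groups of both genes do not overlap, which fixes the sign when a library is left out.

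**Figure D4:**
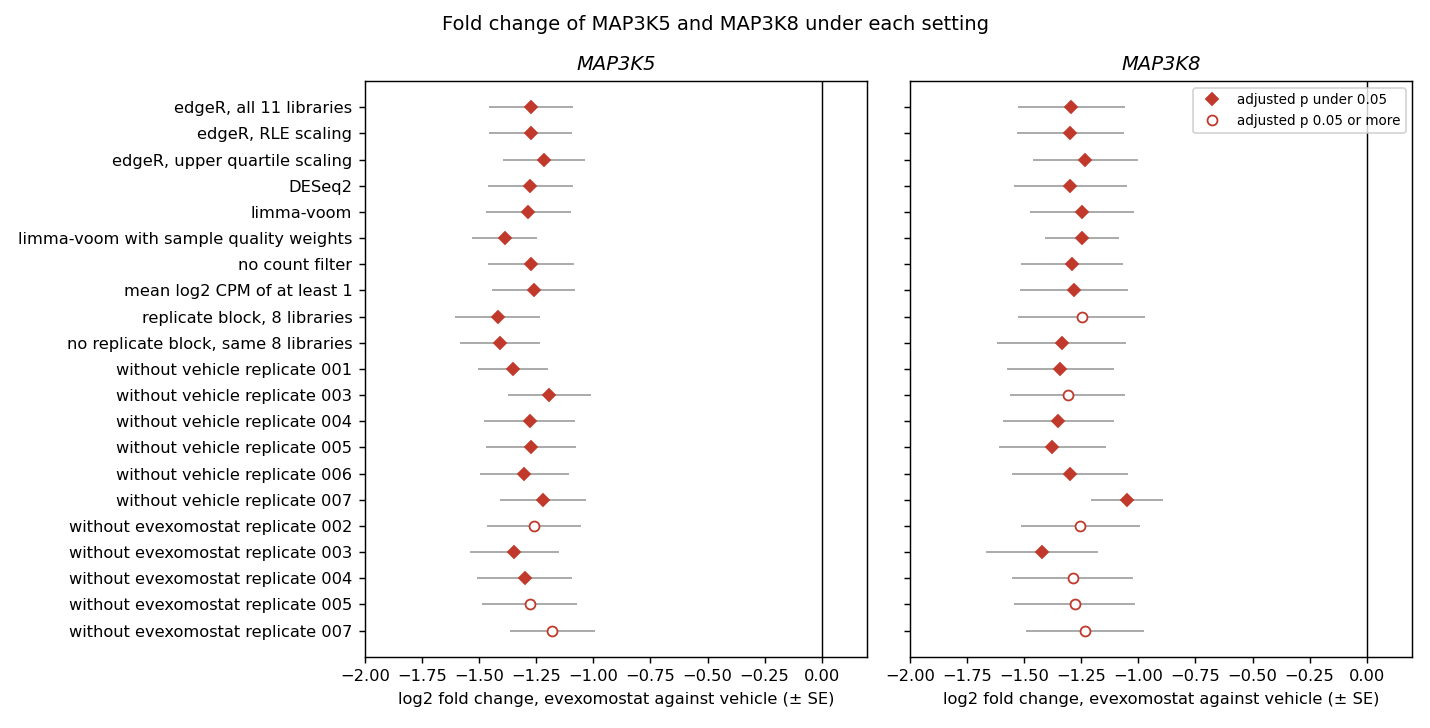
Log2 fold change of MAP3K5 and MAP3K8 (horizontal axes, evexomostat against vehicle, with the standard error) under the main settings and 20 alternatives (vertical axis). Filled diamonds have an adjusted p under 0.05 and open circles do not, and the open circles fall at left-out libraries and, for MAP3K8, at the replicate block.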

How the data were processed

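Total RNA of frozen tumour pieces was read from both ends on a HiSeq instrument, per the labels' protocols. The submitters' processing notes name bcl2fastq 2.17, STAR 2.7.5c, featureCounts (Subread) and edgeR, and the builds GRCh37 and hg19. Which annotation was used, whether strand was, and what became of mouse reads is not given in the sources used here, so a human gene can hold mouse reads and overlapping genes can share reads. The deposited counts are whole reads per gene symbol. The deposited RPM values are the authors' counts scaled to the library total, and recomputing them from the counts left a largest difference of 9e-13. The authors' deposited table holds log2 fold changes, p-values with adjusted p-values, and SDs of RPM (kept as a score), and its test is not stated.

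Columns were matched to samples by the codes in the labels, and groups came from the titles. Counts were filtered with filterByExpr (minimum count 10, minimum total 15), scaled by TMM and compared with edgeR 4.0.16 (quasi-likelihood, no covariates, R 4.3.3) over 16653 genes, with Benjamini-Hochberg adjustment and a threshold of 0.05. Standard errors were derived from the log2 change and its F statistic. Log2 CPM for correlations used a prior count of 2. Promoters (RefSeq) and gene lengths (GENCODE) were matched by symbol and are on another build than the one in the processing notes. Alternatives were DESeq2 1.42.0, limma-voom (limma 3.58.1) with and without sample quality weights, RLE or upper quartile scaling in edgeR, other filters, a replicate block and leaving out each library. The fits were first tested on simulated counts with known changes. There edgeR called 50% of the genes changed 2-fold and 89.8% of those changed 4-fold, so a gene that is not called can have changed. With the replicate block on 8 libraries these shares were 8.16% and 64.9%. False calls were 3.52% of the calls in edgeR and 13.6% in DESeq2. The genes, the lists and the tests were chosen with earlier results of these data known. The naming rule took all 10 kinases, and from each list the genes past the threshold or else the one with the smallest p-value, and the 5 genes most correlated with MAP3K5. Genes named outside it are said to be so, and the single luminal and leukocyte markers and the other genes of the cascade named without statistics were also named after their values were seen. At these depths the floor of 3 counts is 0.0764 to 0.132 RPM, which covers counting error only.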

Additional observations from a re-analysis of the deposited data

Results flagged for a closer look

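Values were flagged where the highest or lowest library of a group stood far from the rest of its group by Dixon's criterion, which chance meets in about 1 in 20 groups. Among the 10 kinases, 4 of 20 groups did so. Vehicle replicate 007 held 87.7 CPM of MAP3K8, while the remaining vehicle libraries held 34.7 to 48.4. For MAP2K4 the value that stood out was 47.1 CPM in vehicle replicate 003 (34.1 to 38.3 elsewhere in the group), and for MAPK9 it was 206 CPM in vehicle replicate 005 (136.5 to 158). The low value was MAP2K6 in evexomostat replicate 002, at 5.34 CPM (7.28 to 7.90). Among the other genes of the cascade named by the rule, vehicle replicate 007 held 109.7 CPM of GLRX (37.9 to 47.2 elsewhere) and 139 CPM of IL1R1 (30.3 to 67.2). Evexomostat replicate 004 held 82.5 CPM of RELB (64.1 to 69.0).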

How the results depend on the processing

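For each change given here, the cause was not tested. The count of 101 called genes (28.7% higher) became 649 with DESeq2 and 1059 with sample quality weights, and 40% of calls were higher with upper quartile scaling (70 genes). Leaving out 1 library gave 1 (without evexomostat replicate 005) to 865 genes (without vehicle replicate 001). The 2 called kinases became 3 with quality weights (MAP3K14 added), and 0 to 2 when 1 library was left out, with 0 without evexomostat replicate 002, 005 or 007, where 3 to 4 of the 10 had an unadjusted edgeR p under 0.05. The 3 called genes of the cascade lists became 13 with DESeq2 and 19 with quality weights. Both of those sets held GLRX, MAP3K2, MAPK12, MAPK8IP1 and IL1R1, which the main edgeR fit did not call. When 1 library was left out the count was 0 to 14, with 14 without vehicle replicate 001. It was 0 without evexomostat replicate 002, 005 or 007, where 21 to 26 genes had an unadjusted edgeR p under 0.05. Vehicle and evexomostat libraries numbered 003, 004, 005 and 007 had deviations from their group means that correlated at -0.27, 0.07, 0.05 and -0.10, and are taken to share only a number. On those 8 libraries the replicate block called 107 genes, 1 kinase (MAP3K5, while MAP3K8 had an adjusted p of 0.0934) and 2 cascade genes (PTGS2 and CXCL8). Without the replicate block the same 8 gave 733 genes, 2 kinases and 9 cascade genes. Reversals were MAPK8 at -0.0555 in that last comparison and MAPK9, which ranged from -0.1483 to 0.0244 over the left-out libraries, and neither passed the threshold. The MAPK13 value of 0.81 shrank to 0.46 (replicate block) and 0.47 (none) on these 8 libraries. The other 8 kinases kept their sign in all 20 alternatives.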
